A study of Mus musculus with 16 samples.

Results

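Lxn, Sharpin, Borcs8, Lyz1, Glipr1, Wfdc17 and Tmem198b are 7 mouse genes whose transcripts still gave a high T-to-C rate at the end of a SLAM-seq chase. They were taken from a list of genes with a mean rate of at least 10% over the 18 and 24 h libraries, in YBX1-/- and in WT cells alike, each gene being judged by the transcript interval with the most reads. Of 9628 genes with an interval at a mean of 1 CPM (reads scaled to library size) or more, 39 met that limit (0.405%), so the 7 are some of the genes that met it. The 7 had 23 intervals at or above 1 CPM. The genes were thus chosen by their measured rates at 18 and 24 h, which are given as a description, with no test. The tests use the 12 libraries from 0 to 12 h.

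The cells were mouse leukemia cells of the C57BL/6 strain, with bone marrow as the labelled tissue, either YBX1-/- or WT. Cells of both genotypes were fed 50 µM 4-thiouridine (4sU), a uridine analogue, for 24 h, then washed and chased in 10 mM uridine. PolyA RNA was sequenced at 0, 0.5, 1, 3, 6, 12, 18 and 24 h of the chase, with 1 library per genotype and time (16 libraries). The sources used here do not name the oncogene of the leukemia, the driver of the deletion, the number of animals or their age.

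In SLAM-seq, 4sU built into new RNA is made to read as C where the genome has T, and the share of such changes is the rate. During the chase new RNA carries no 4sU, so the rate of a transcript drops as labelled copies are degraded and as unlabelled copies are added; these were not told apart. Long-lived mRNAs keep label longest. A base that differs between a read and the reference also reads as a change, whatever its origin. YBX1 is an RNA-binding protein of the cytoplasm known for stabilising mRNAs, including mRNAs with m6A.

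At 0, 3, 12 and 24 h the rate of the median gene was 33.3%, 16.8%, 1.30% and 0.674% in YBX1-/-, and 42.3%, 17.4%, 1.74% and 0.505% in WT. The YBX1-/- library at 0 h stood apart from the WT one, with 7.16% of the tested intervals listed at exactly 0, against 0.0751% in WT. Results that change without this YBX1-/- library are named below. Zeros were also common later, at 9.13% in YBX1-/- and 3.42% in WT at 6 h. By 12 h they made up 34.1% in YBX1-/- and 29.3% in WT. All 14 myeloid marker genes had at least 1 CPM (17.1 to 7376 CPM), among them Mpo and Csf1r. Of the other lists, 2 of 7 lymphoid, 1 of 5 erythroid, 3 of 4 megakaryocyte, 1 of 5 stromal or endothelial and 0 of 3 Paneth or epithelial markers reached 1 CPM. CPM was deposited as a mean over libraries, so neither these levels nor the depth of a library can be compared between genotypes. Ybx1 itself was listed at 32.5 CPM with rates of 3.08% to 72.0% over the YBX1-/- libraries and 5.08% to 61.4% over the WT libraries. Rates hold no information on transcript amount, so the genotype labels were not checked by them.

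Lyz1 encodes the lysozyme that Paneth cells of the gut are known for, while its neighbour Lyz2 encodes the lysozyme of macrophages and granulocytes. The Lyz1 interval (ENSMUSG00000069515, chr10:117287797-117288582 in GRCm38, minus strand) is the 3′ UTR of Lyz1-201, with 786 bases and 213 Ts, and had 10.4 CPM. Lyz2 had 7376 CPM, or 710 times as much. The Lyz1 interval matched the Lyz2 transcript at 96.1% identity over 787 aligned positions, with 29 substitutions. At 10 of the 29, Lyz1 has T and Lyz2 has C, and at 5 Lyz1 has C and Lyz2 has T. The windows below are shown because 1 of these 10 positions is their only difference; the capital is the base that differs, the rest is shared, and positions are counted from 1 at the 5′ end of the Lyz1 interval.
Lyz1, T340C, chr10:117288231-117288255: atacaagaactgTttataggagacc
Lyz2, same window: atacaagaactgCttataggagacc
Lyz1, T518C, chr10:117288053-117288077: tatcagggaaccTgtgacctgtctt
Lyz2, same window: tatcagggaaccCgtgacctgtctt
Lyz1, T623C, chr10:117287948-117287972: ttcccagtgtcaTgaggcattcagg
Lyz2, same window: ttcccagtgtcaCgaggcattcagg
Lyz1, T686C, chr10:117287885-117287909: ttccttcattcaTactaactctgag
Lyz2, same window: ttccttcattcaCactaactctgag

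The Lyz1 rate was 75%, 78.6%, 48.6%, 64.3%, 66.7%, 25%, 35.0% and 17.8% in YBX1-/- at 0, 0.5, 1, 3, 6, 12, 18 and 24 h. In WT it was 70.9%, 63.4%, 57.8%, 54.2%, 57.0%, 40.2%, 30.4% and 19.4% at the same times. Lyz1 thus started among the highest rates of all genes, at the 88.2nd to 99.7th percentile over the 6 libraries of 0 to 1 h, and ended with mean late rates of 26.4% in YBX1-/- and 24.9% in WT. The Lyz2 rate was 33.1%, 38.6%, 31.1%, 33.4%, 19.5%, 7.55%, 5.78% and 2.91% in YBX1-/-, and 46.0%, 49.2%, 51.2%, 36.6%, 33.8%, 13.6%, 5.62% and 3.36% in WT. Lyz1 was therefore above Lyz2 in all 16 libraries, while both were at their lowest at 24 h in each genotype. The share of Lyz2 reads in the Lyz1 value was not tested.

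**Figure D1:**
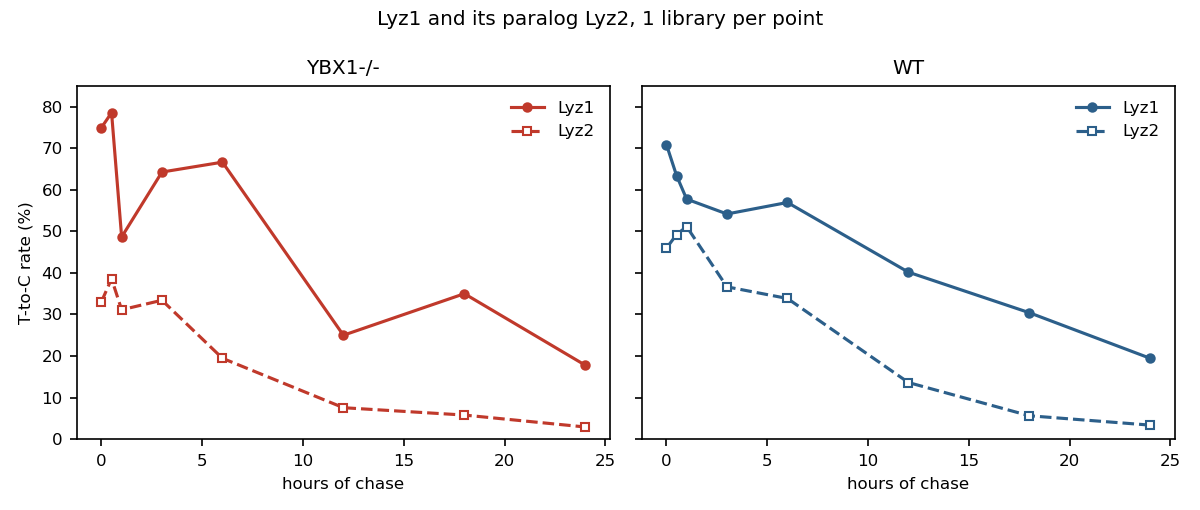
T-to-C rate in percent (vertical axis) against hours of chase (horizontal axis) for Lyz1 (solid lines, circles) and Lyz2 (dashed lines, squares), with YBX1-/- in the left panel and WT in the right; each point is 1 library. Lyz1 lies above Lyz2 at every time in both panels and is at 17.8% in YBX1-/- and 19.4% in WT at 24 h.

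Wfdc17 encodes a small secreted protein of the WAP four-disulfide core family that activated macrophages make, and it was the most abundant of the 7, at 617 CPM. Its interval (ENSMUSG00000069792, chr11:83706068-83706268, plus strand, 201 bases, 59 Ts) is the 3′ UTR of Wfdc17-201. The rate was 48.7%, 51.3%, 43.7%, 46.7%, 36.2%, 30.9%, 23.3% and 20.2% over the chase in YBX1-/-. In WT it was 50.7%, 49.4%, 48.4%, 38.5%, 36.8%, 25.1%, 17.2% and 10.9%. The last library was the lowest in each genotype, and YBX1-/- was above WT at 5 of the 8 times, the last 3 among them. The neighbouring family member Wfdc18 (2.17 CPM) matched the interval at 81.5% identity over 189 aligned positions, and its late rates were 17.0% in YBX1-/- and 8.02% in WT. Ccl4, the chemokine gene beside Wfdc17, had late rates of 1.81% in YBX1-/- and 1.10% in WT.

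Glipr1 encodes a member of the CAP superfamily of mostly secreted or membrane-bound proteins. The chosen interval (ENSMUSG00000056888, chr10:111985460-111985636, minus strand, 177 bases, 60 Ts, 113 CPM) is the 3′ UTR of Glipr1-203 and overlaps coding sequence of Glipr1-201 and Glipr1-204. Its rate was 43.5%, 44.1%, 43.6%, 38.3%, 24.5%, 18.9%, 19.1% and 22.9% in YBX1-/-. The WT rates were 53.7%, 55.9%, 56.0%, 39.9%, 29.9%, 18.7%, 1.69% and 21.4%. The YBX1-/- rate stayed near 20% from 12 h on, whereas the WT late mean of 11.6% joins 1 low library, at 18 h, and 1 high one. Of the nearest genes, Phlda1 had late rates of 0% in YBX1-/- and 1.85% in WT, and Glipr1l1 (2.38 CPM) had 16.7% in YBX1-/- and 1.79% in WT. A second Glipr1 interval, chr10:111985448-111985527 with 39.9 CPM, overlaps the first and had 42.4%, 41.7%, 35.0%, 25.5%, 12.8%, 4.65%, 7.39% and 3.22% in YBX1-/- and 46.2%, 49.7%, 52.8%, 29.7%, 18.2%, 5.15%, 2.48% and 3.29% in WT. Its late means were 5.31% in YBX1-/- and 2.89% in WT, against 21% in YBX1-/- and 11.6% in WT for the chosen interval, so the shorter, overlapping interval had the lower late rate. Krr1, on the opposite strand, covers all 177 bases, had 296 CPM, and had late rates of 1.80% in YBX1-/- and 1.86% in WT; the sources used here do not say whether reads were counted by strand.

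Lxn encodes latexin, an inhibitor of metallocarboxypeptidases that is also known as a negative regulator of hematopoietic stem cell number in mice. Its interval (ENSMUSG00000047557, chr3:67457998-67458228, minus strand, 231 bases, 58 Ts, 38.8 CPM) is the 3′ UTR of Lxn-201. The rate was 42.6%, 38.5%, 32.2%, 30.8%, 22.9%, 16.9%, 24.0% and 18.8% in YBX1-/-. The WT rates were 47.8%, 48.8%, 41.8%, 29.8%, 22.9%, 15.3%, 15.8% and 24.9%. Lxn began near the middle of all genes, at the 49.1st to 73.7th percentile over 0 to 1 h, and was at the 97.9th to 98.4th at 12 h, while its late means were 21.4% in YBX1-/- and 20.4% in WT. The nearest genes, Gfm1 and Mlf1, had late rates of 2.30% and 0% in YBX1-/- and of 0.806% and 0% in WT. No transcript of another gene matched the Lxn interval. The same held for every searched interval of Sharpin, Borcs8 and Glipr1 (those of 31 bases or more).

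Sharpin encodes a subunit of the linear ubiquitin chain assembly complex (LUBAC), which attaches linear ubiquitin chains in TNF receptor signalling. The chosen interval (ENSMUSG00000022552, chr15:76347040-76347387, minus strand, 348 bases, 78 Ts, 9.92 CPM) is the 3′ UTR of Sharpin-213, a transcript annotated for nonsense-mediated decay. Its rate was 31.2%, 40.7%, 33.3%, 32.6%, 14.4%, 16.2%, 10.6% and 18.6% in YBX1-/-. The WT rates were 41.6%, 47.5%, 34.6%, 33.0%, 25.9%, 15.3%, 18.2% and 26.4%. WT was above YBX1-/- at 7 of the 8 times, and in both genotypes the 24 h library exceeded the 18 h one. The late means were 14.6% in YBX1-/- and 22.3% in WT, and other intervals of the gene had both high and low late means. The nearest genes, Cyc1 and Maf1, had late rates of 0.598% and 0.817% in YBX1-/- and of 0.798% and 1.54% in WT. The interval chr15:76347040-76347185, which lies inside the chosen one, had late means of 0.29% in YBX1-/- and 1.63% in WT. By contrast chr15:76347482-76347594, a coding exon of Sharpin-201 with 4.15 CPM, had 31.3% in YBX1-/- and 17.0% in WT, the WT value being the mean of 0% at 18 h and 33.9% at 24 h.

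Borcs8 encodes a subunit of BORC, the complex that recruits the small GTPase Arl8 to lysosomes and so sets their position in the cell. The chosen interval (ENSMUSG00000002345, chr8:70145024-70145549, plus strand, 526 bases, 116 Ts, 7.75 CPM) is the 3′ UTR of Borcs8-203, annotated for nonsense-mediated decay, and its first 111 bases are a coding exon of Borcs8-201 and Borcs8-202. Its rate was 48.3%, 17.3%, 40.8%, 23.6%, 47.6%, 36.9%, 46.3% and 32.6% in YBX1-/-. In WT it was 62.5%, 27.0%, 32.8%, 48.6%, 8.87%, 1.72%, 35.9% and 41.4%. Neither course ran downward through the chase: the late mean was 111% of the 0 to 1 h mean in YBX1-/- and 94.8% in WT, and the WT values at 6 and 12 h lay below those at 18 and 24 h. Of the nearest genes, Nr2c2ap had late rates of 0.980% in YBX1-/- and 0% in WT, while Tmem161a (8.02 CPM) had 0.809% in YBX1-/- and 28.0% in WT, and 0% and 26.3% at 12 h. The 111-base exon alone, with 6.84 CPM, had late means of 44.6% in YBX1-/- and 44.5% in WT. In the 3′ UTR of the protein-coding transcript, chr8:70147090-70147256 with 5.13 CPM, the late means were 3.74% in YBX1-/- and 1.97% in WT. That interval had 60.0%, 37.5%, 41.7%, 25%, 17.3%, 14.6%, 5.77% and 1.70% in YBX1-/- and 42.2%, 32.5%, 38.3%, 33.2%, 26.0%, 12.3%, 3.95% and 0% in WT, a course that ends at its lowest value in both genotypes.

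Tmem198b had an interval (ENSMUSG00000047090, chr10:128800036-128801094, minus strand, 1059 bases, 297 Ts, 7.50 CPM) that is the 3′ UTR of Tmem198b-201. Its rate was 26.1%, 22.1%, 26.2%, 21.6%, 16.9%, 8.47%, 8.86% and 14.0% in YBX1-/-. In WT it was 20.9%, 27.9%, 28.6%, 20.5%, 19.3%, 1.43%, 9.68% and 21.5%. At 0 h this was the lowest rate of the 7 in both genotypes, and over 0 to 1 h it lay at the 6.6th to 36.0th percentile of all genes. The 24 h rate exceeded the 18 h rate in both genotypes. Bases 386 to 570 of the interval matched transcripts of 2966 other genes, 24 of them at 90% identity or more; the share of such reads was not tested. Mmp19, on the opposite strand, overlaps 789 bases of it with 9.33 CPM and late rates of 0.459% in YBX1-/- and 0.975% in WT. Dnajc14, on its other side, had 0.434% in YBX1-/- and 0.755% in WT.

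**Figure D2:**
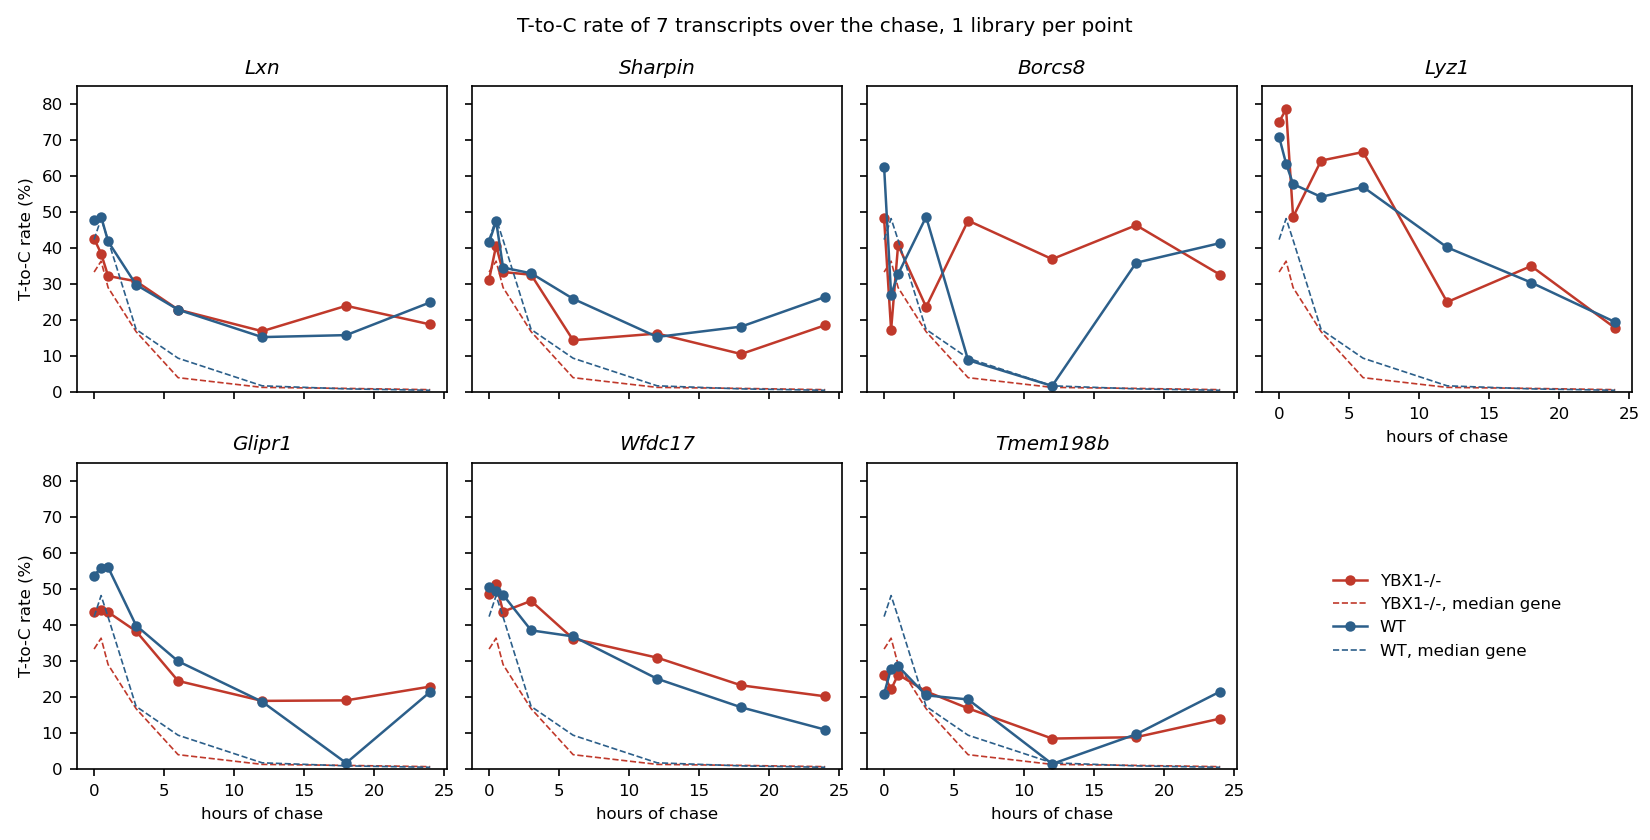
T-to-C rate in percent (vertical axes) against hours of chase (horizontal axes) for each of the 7 genes in the interval with the most reads, with YBX1-/- in red, WT in blue, 1 library per point, and the median of all genes in each genotype as dashed lines. Wfdc17 has its lowest values at 24 h, Borcs8 shows no steady decline, and Borcs8 and Tmem198b in WT lie at the median gene at 12 h (1.72% and 1.43% against 1.74%).

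**Figure D3:**
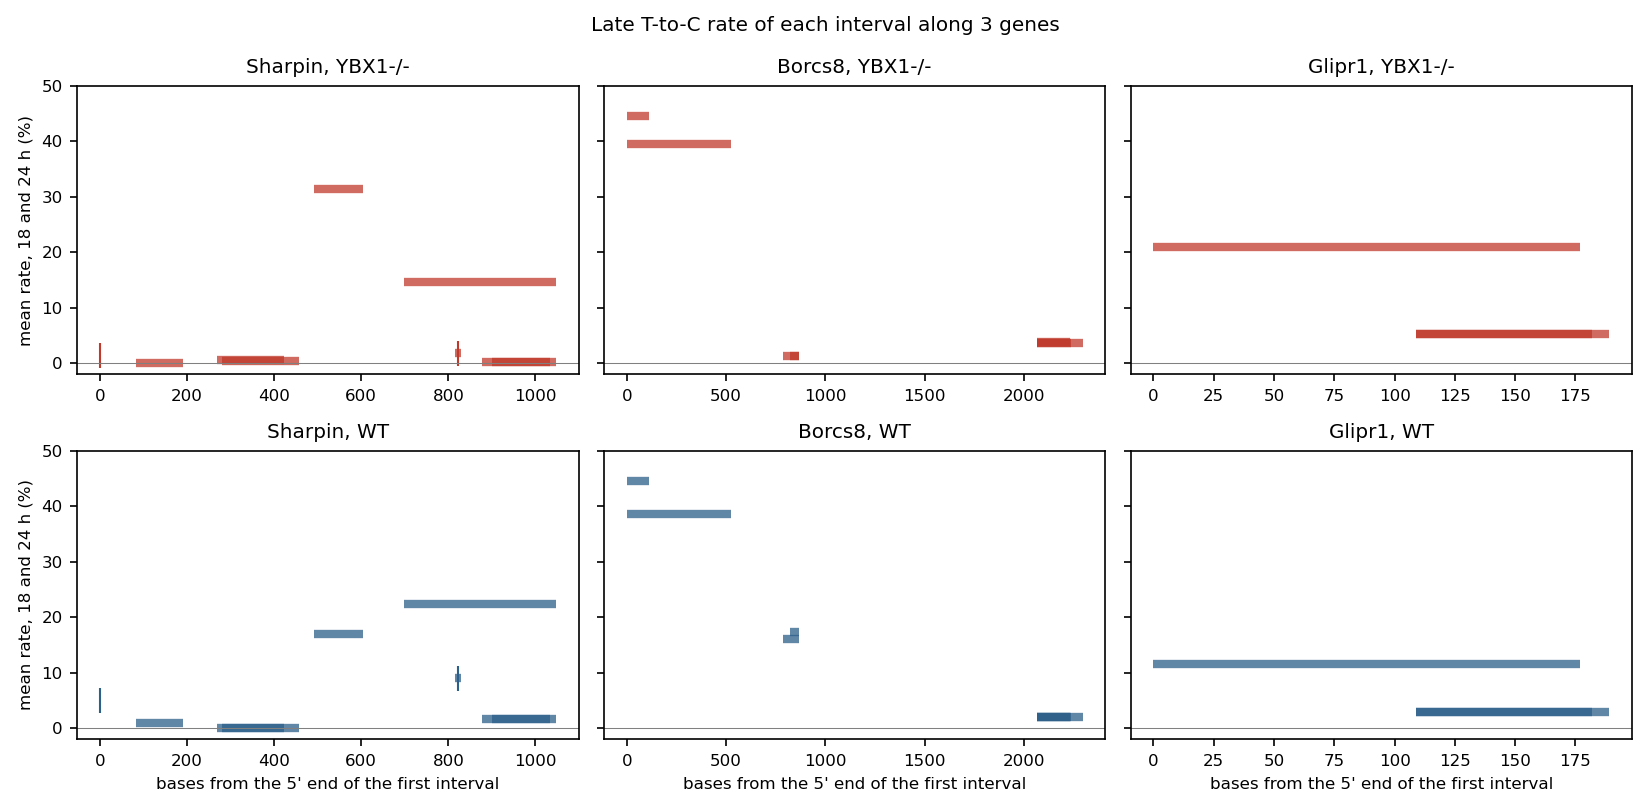
Mean T-to-C rate over 18 and 24 h in percent (vertical axes) for every interval of Sharpin, Borcs8 and Glipr1 with at least 1 CPM, drawn as a bar over its position in bases from the 5′ end of the first interval (horizontal axes), with YBX1-/- in the upper panels and WT in the lower; thin upright marks show intervals too short to see. High and low intervals lie in the same gene, for example 31.3% in YBX1-/- and 17.0% in WT for 1 Sharpin exon and 0.29% in YBX1-/- and 1.63% in WT for a stretch of its 3′ UTR.

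For Sharpin, Borcs8 and Glipr1 a high late rate was thus seen in some intervals and not in others. A read can overlap several intervals, so intervals of 1 gene share reads and are not separate measurements. The table also lists 608 intervals without any T, of which 277 have a rate above 0, so the rate of an interval does not rest only on Ts inside it. Close to the limit of 10%, Tpt1 (10.1% in YBX1-/- and 22.6% in WT), Mmp12 (11.9% and 10.3%) and Mcpt8 (10.6% and 33.9%) were just inside. Rpl18 (9.85% in YBX1-/- and 12.5% in WT) and Rps26 (13.9% and 9.92%) were among those just outside. The 32 other genes that met the limit had a median of 2.52 CPM, against 10.4 CPM for the 7, and 10 of the 32 had at least 5 CPM.

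Whether the rate already fell slowly before the late libraries was tested from 0 to 12 h as the relative slope. This is the change per hour of log2(rate + 0.1 percentage points) after subtracting the library median. A value above 0 means that the rate fell more slowly than in the median interval, or did not fall. Changes other than label count in the rate, and their share was not tested. Slower and faster below refer to the rate. With 1 library per genotype and time, the p-values measure scatter around a line over time, not between separate cultures. In YBX1-/-, all 7 genes passed above 0 (limma, adjusted p under 0.05; 13.8% of the 19969 tested intervals did), with slopes of 0.26 to 0.42 log2 per h and a median of 0.28. In WT, 5 of 7 passed (9.93% of intervals did); Borcs8 at -0.0083 (SE 0.075, limma adjusted p = 0.958) and Tmem198b at 0.064 (SE 0.052, limma adjusted p = 0.439) did not. Without the 12 h time point Tmem198b passed in WT too (0.32, limma adjusted p = 0.0102), as did 1455 of the 21098 intervals tested then. The quartiles over all tested intervals were -0.27 and 0.11 in YBX1-/-, and -0.24 and 0.09 in WT. Of the 14 myeloid marker genes, 10 passed above 0 in YBX1-/- and 9 in WT, and 0 passed below 0. Among 8668 genes judged by the interval with the most reads, 1187 and 833 passed above 0. The markers had median slopes of 0.22 in YBX1-/- and 0.21 in WT, with median late rates of 2.76% and 2.75%. A slope above 0 was thus not particular to genes with a high late rate. Wfdc17 had 0.34 (SE 0.026, limma adjusted p = 7.26e-05) in YBX1-/- and 0.30 (SE 0.026, limma adjusted p = 0.000188) in WT. Lxn had 0.29 (SE 0.027) in YBX1-/- and 0.24 (SE 0.027) in WT, Sharpin 0.28 (SE 0.022) and 0.26 (SE 0.022), and Glipr1 0.28 (SE 0.022) and 0.25 (SE 0.022). Lyz1 had 0.28 (SE 0.046) in YBX1-/- and 0.33 (SE 0.046) in WT.

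With rates in percent and no logarithm, 0 of all 19969 intervals passed in either genotype, the 7 included, and Lyz1 in YBX1-/- lay below 0. Other intervals of the same genes differed here too. The Sharpin exon at chr15:76347482-76347594 had relative slopes of 0.33 (SE 0.034, limma adjusted p = 0.000188) in YBX1-/- and 0.32 (SE 0.034, limma adjusted p = 0.000328) in WT, whereas chr15:76347040-76347185 had -0.30 in YBX1-/- (SE 0.099, limma adjusted p = 0.0411) and -0.30 in WT (limma adjusted p = 0.0541). The shorter Glipr1 interval had 0.12 in YBX1-/- and 0.11 in WT, smaller values than the chosen interval but still past the threshold (limma adjusted p = 0.00274 and 0.00942). In Borcs8 the protein-coding 3′ UTR at chr8:70147090-70147256 passed in both genotypes, with 0.24 (SE 0.035, limma adjusted p = 0.00085) in YBX1-/- and 0.25 (SE 0.035, limma adjusted p = 0.00122) in WT. At 12 h alone, Lxn, Sharpin, Lyz1, Glipr1 and Wfdc17 lay at or above the 97.9th percentile of all genes in both genotypes. Borcs8 was at the 99.8th percentile in YBX1-/- and the 49.8th in WT, and Tmem198b at the 93.3rd in YBX1-/- and the 44.7th in WT.

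**Figure D4:**
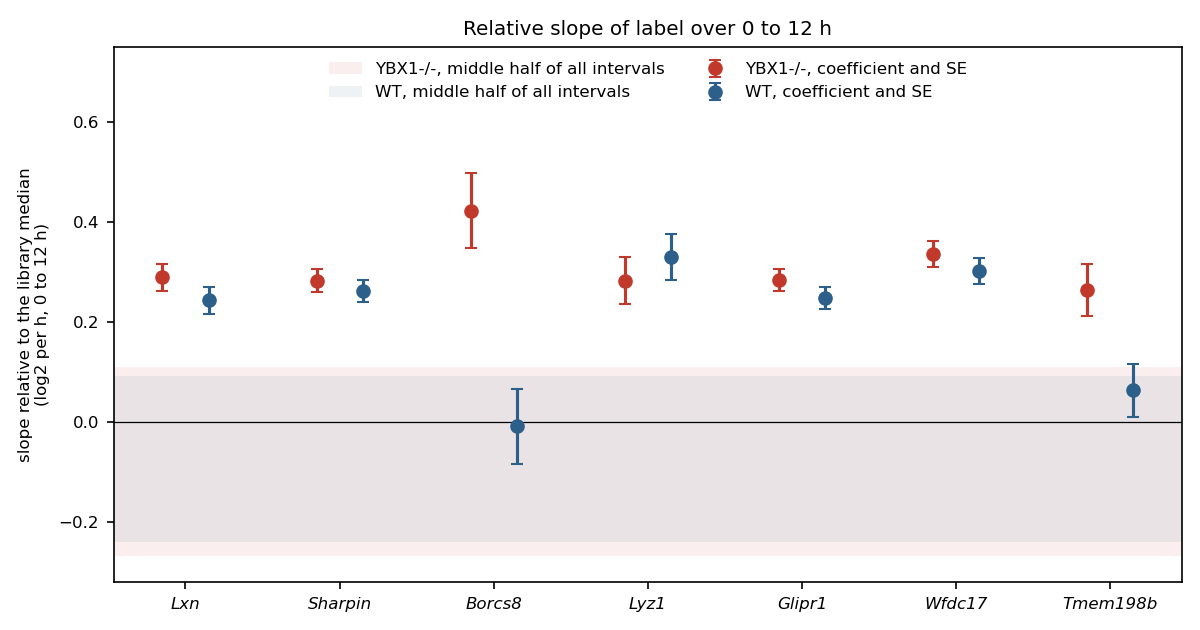
Relative slope over 0 to 12 h (vertical axis, log2 of the rate per hour with the library median subtracted) for the 7 genes (horizontal axis) in YBX1-/- (red, left of each pair) and WT (blue); points are coefficients, bars are SE, and shaded bands run between the quartiles of all tested intervals. All 7 YBX1-/- values lie above the band, while Borcs8 in WT is at -0.0083 and Tmem198b in WT at 0.064, inside it.

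The rate nonetheless fell for most of the 7. Without subtraction of the median, 6 of 7 fell in YBX1-/- (limma adjusted p under 0.05; 81.2% of intervals fell and 0.00501% rose) and 6 of 7 fell in WT (82.7% of intervals fell and 0.01% rose), shares close to those of all intervals. The exceptions were Borcs8 in YBX1-/- at 0.028 log2 per h (SE 0.058, limma adjusted p = 0.658) and Lyz1 in WT at -0.055 (SE 0.028, limma adjusted p = 0.0887). Lxn changed by -0.10 per h (SE 0.02) in YBX1-/- and -0.14 (SE 0.02) in WT, against -0.39 for the median interval of each genotype. Wfdc17 changed by -0.058 (SE 0.017) in YBX1-/- and -0.083 (SE 0.017) in WT. Without the 12 h libraries 3 of 7 fell in each genotype, Lxn, Sharpin and Glipr1 in YBX1-/- and Lxn, Borcs8 and Glipr1 in WT, while 13674 of 21098 intervals fell in YBX1-/- and 12728 in WT. The call for Tmem198b in YBX1-/- was also lost without the 0 h library of YBX1-/- (-0.13, limma adjusted p = 0.0538) and without the 0.5, 1 or 3 h time point, and Lyz1 passed in WT without the 6 h time point (-0.059, limma adjusted p = 0.0487), where 16543 of 19073 intervals fell.

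No gene of the 7 differed in slope between genotypes at the threshold. The slope difference, YBX1-/- minus WT, was called in 0 of 7 by limma after adjustment, and 2 of 7 had an unadjusted p under 0.05. Of all intervals, 0.015% were called above 0 and 0.03% below 0, while 5283 of 19969 had an unadjusted p under 0.05. The 2 genes were Borcs8, at 0.43 log2 per h (SE 0.096, limma adjusted p = 0.071), and Tmem198b, at 0.20 (SE 0.049, limma adjusted p = 0.0787). In both, the WT rate at 12 h was low, 1.72% for Borcs8 and 1.43% for Tmem198b, against 36.9% and 8.47% in YBX1-/-. Without the 6 h time point both passed (0.40, limma adjusted p = 0.0358, and 0.21, limma adjusted p = 0.0326), but so did 2296 intervals above 0 and 2701 below 0 of 19073, so these calls do not set the pair apart. Without the 12 h time point Borcs8 was at 0.50 (limma adjusted p = 0.36) and Tmem198b at 0.064 (limma adjusted p = 0.743), and 0 of 21098 intervals were called. The other 5 lay between -0.047 for Lyz1 (SE 0.055) and 0.046 for Lxn (SE 0.035).

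The level difference, YBX1-/- minus WT over 0 to 12 h, was above 0 for all 7 with the library median subtracted, but below 0 for Lxn, Sharpin, Lyz1 and Glipr1 without that subtraction. With it, values ran from 0.21 for Sharpin (SE 0.12) to 1.29 for Borcs8 (SE 0.77), on the log2 scale. None was called (limma adjusted p = 0.793 for each; 0% of intervals were called, and 844 of 19969 had an unadjusted p under 0.05). The 1 gene of the 7 with an unadjusted p under 0.05 was Wfdc17, at 0.52 (SE 0.13).

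Relatives and partners of the 7 were compared by their own intervals with the most reads. Among all 8668 genes tested this way, 1187 were slower and 1624 faster than the median in YBX1-/-, and 833 were slower and 964 faster in WT (limma adjusted p under 0.05). Of 5 carboxypeptidase genes tested (Cpa3, Agbl5, Cpd, Scpep1 and Ctsa), 3 were slower in YBX1-/- and 4 in WT. Their median relative slope was 0.23 in YBX1-/- and 0.18 in WT. The list was not limited to metallocarboxypeptidases, and whether latexin acts on the products of these genes was not tested. Of 11 genes of LUBAC and linear ubiquitin signalling besides Sharpin, 3 were slower and 2 faster in YBX1-/- and 0 passed in WT. The 2 faster genes, Traf2 and Birc2, each had a rate of exactly 0% at 12 h in YBX1-/-, which can be a failed estimate. The other LUBAC subunits, Rnf31 (1.45 CPM, close to the limit of 1 CPM) and Rbck1 (17.1 CPM), had low late rates. These were 0% and 1.10% in YBX1-/- and 0% and 1.43% in WT. At 12 h they were 13.3% and 2.07% in YBX1-/- and 0% and 3.00% in WT. Of 9 BORC and Arl8 genes besides Borcs8, 1 was slower and 1 faster in YBX1-/- and 1 was slower in WT. Of 3 WAP family genes besides Wfdc17, Slpi, a secreted protease inhibitor with 222 CPM, was slower in both genotypes (0.31 in YBX1-/- and 0.30 in WT) and had late rates of 8.52% in YBX1-/- and 8.55% in WT. Wfdc18 (2.17 CPM) had -0.38 in YBX1-/- (limma adjusted p = 0.00683) and 0.21 in WT (limma adjusted p = 0.0977). The YBX1-/- value was called faster, but it includes a rate of exactly 0% at 12 h, where WT had 13.2%. An exact 0 can be a failed estimate, and the late rates of Wfdc18 were 17.0% in YBX1-/- and 8.02% in WT. Lyz2 was slower too, at 0.21 in YBX1-/- and 0.23 in WT, and of 3 CAP genes besides Glipr1 none passed.

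As a description over the 16 libraries, which all genes share, the gene whose course was most like that of Lyz1 was Cd74 (Pearson r = 0.993), with late rates of 9.06% in YBX1-/- and 9.93% in WT. For Wfdc17 it was Cope (r = 0.990), for Glipr1 Nt5c2 (r = 0.979), and for Lxn (r = 0.990) and Sharpin (r = 0.981) it was Cnih4 in each case. Cnih4 had late rates of 9.32% in YBX1-/- and 8.87% in WT. Borcs8 and Tmem198b were each other's closest match (r = 0.940). Among the 7, r ran from 0.733 for Glipr1 with Borcs8 to 0.980 for Lyz1 with Wfdc17. Every r here includes the late libraries, whose high rates chose the 7. That choice alone can raise r among the 7 and with other genes of high late rate. No conclusion on shared behaviour is therefore drawn from these values.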

How the data were processed

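The authors deposited 1 table of T-to-C rates as fractions for 16 libraries, and per the file headers also mean read levels in CPM and a mean coverage signal on Ts. The submitters' processing notes name HISAT2 2.1.0 and CASAVA, beside the human build GRCh38. The T content of each searched interval equals that of the mouse GENCODE M21 transcripts on GRCm38, which gives the coordinates, counted from 1. The conversion counter, the denominator of the rate, any filter on sequence variants and the use of strand are not given in the sources used here. Depth per library is unknown, so no interval for a rate is given, and an exact 0 can be a failed estimate. No unlabelled library was analysed here, so no background was subtracted.

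The table held 86993 rows, 74385 of them different intervals, for 21177 genes, 21148 with a symbol. Rates were put in percent and analysed as log2(rate + 0.1 percentage points), which understates changes of low rates. Intervals with a rate above 0 in at least 9 of the 12 libraries of 0 to 12 h and a mean CPM of at least 1 were tested (19969 intervals, 8713 genes). Limma 3.58.1 (R 4.3.3, with a trend) fitted hours within genotype on all 12 libraries (8 residual degrees of freedom), and genotype by hours or genotype alone with time point as a factor (4 and 5). P-values were adjusted by Benjamini-Hochberg over all tested intervals, with a threshold of 0.05. The scripts were tested on simulated data. Interval sequences were compared with the GENCODE transcripts with blastn 2.17.0 on the sense strand. Likeness was Pearson's r on library-centred values.

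The 7 genes, the gene lists and the tests were chosen with earlier results of these data known, so they are no independent support for late label. Named were the 7 genes, members of the lists of relatives and partners, genes beside them and their closest match. Alternatives changed the pseudocount, filter, window, centring, scale and libraries.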

Additional observations from a re-analysis of the deposited data

How the results depend on the processing

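Each of 42 results (7 genes, 6 quantities) was recomputed under up to 15 alternatives that leave out the late libraries, giving 616 values; 545 kept direction and side of the threshold, 37 lost the call, 5 gained it and 29 changed sign, 7 of these among results that had passed. Both pseudocounts, the stricter filter and 1 interval per gene changed none. No block by replicate number was fitted, since the labels carry none; both genotype comparisons had time point as a factor, which sets YBX1-/- against WT at each time. The genes slower than the median were 0 in YBX1-/- and 0 in WT without a filter, where the library median is 0 in 11 of 12 libraries by construction, and 0 in both on the percent scale; over all intervals the counts were likewise 0 of 74385 and 0 of 19969. Leaving out each time point gave 7 to 7 in YBX1-/- and 5 to 6 in WT, 0 to 2 for the slope difference, and 3 to 6 in YBX1-/- and 3 to 7 in WT for the genes that fell. Over 0 to 6 h, 3 fell in YBX1-/- and 3 in WT. This window holds the same libraries as the fit without the 12 h time point. The 616 values count that fit under both names, so it is no further check. Signs that changed without a filter were, for the relative slope in YBX1-/-, Lxn -0.10, Sharpin -0.11, Lyz1 -0.11, Glipr1 -0.11, Wfdc17 -0.058 and Tmem198b -0.13, in WT Tmem198b -0.10, and for the slope difference Lxn -0.18, Sharpin -0.21, Glipr1 -0.19, Wfdc17 -0.20 and Tmem198b -0.029. On the percent scale (percentage points per h) they were the relative slope of Lyz1 in YBX1-/- (-0.476), the slope differences of Lxn (-0.0245), Sharpin (-0.453), Wfdc17 (-0.376) and Tmem198b (-0.350), and the level difference of Glipr1 (-0.0563 percentage points). Fits over 0 to 24 h hold the rates that chose the genes, so their values are given with no test; signs that changed there were the slope differences of Lxn (-0.0081), Sharpin (-0.034) and Tmem198b (-0.020), the level difference of Sharpin (-0.016) and the relative slope of Borcs8 in WT (0.23). Over 0 to 6 h they were the slope difference of Lyz1 (0.12) and the relative slope of Borcs8 in WT (0.042), which was 0.030 with the library mean subtracted. Without centring the level differences were Lxn -0.11, Sharpin -0.24, Lyz1 -0.011 and Glipr1 -0.22. Leaving out time points moved the relative slope of Borcs8 in WT over -0.058 to 0.042, its slope in YBX1-/- over -0.0076 to 0.067, and the slope difference of Lyz1 over -0.073 to 0.12. Except where construction is named, the cause was not tested. Limits are 1 library per genotype and time, unknown depth and an unstated denominator of the rate.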
